A study of Mus musculus with 6 samples.

Results

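Fatty acids are the main fuel of the adult heart, and the 46 genes described here encode the proteins that carry them into a cell, activate them, store them as triglyceride and oxidise them in mitochondria. The genes were taken by name from a table of 54532 genes, and each of the 46 names matched 1 gene. Ventricular cardiomyocytes were isolated from C57BL/6J mice at 1 day of age and given a short hairpin RNA (shRNA, which lowers its target transcript) at a multiplicity of infection of 200. In 3 libraries the hairpin was directed against Gdf11 (shGDF11). The other 3 libraries carried a control hairpin, named sh-nc in the sample labels and sh-Vector in the protocol. RNA was taken after 48 h in both groups, so all 6 samples had received a hairpin, and untreated cells were not analysed here. Each group has samples numbered 1 to 3, and no label tells if a number stands for a culture or a hairpin. Separate cultures are not stated either, so the p-values reflect the spread of these samples alone, and that spread may be technical. The series concerns Gdf11, which encodes a TGF-beta family growth factor, in heart failure and cardiac angiogenesis.

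Long-chain fatty acids reach the cardiomyocyte from lipoproteins cut by lipoprotein lipase or from albumin, cross the membrane with the help of CD36 and transport proteins, and are joined to coenzyme A by acyl-CoA synthetases. The carnitine shuttle moves them into mitochondria, where each turn of the beta-oxidation spiral removes an acetyl unit through a dehydrogenase, a hydratase, a second dehydrogenase and a thiolase. Malonyl-CoA blocks entry into the shuttle. Surplus fatty acid is stored in lipid droplets as triglyceride and released again by lipases, and the PPAR nuclear receptors switch on many of these genes. The heart turns from glucose and lactate to fatty acids around birth, the age from which these cells came.

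The libraries held 15267083 to 16152910 reads in listed genes. Levels are given as FPKM, fragments scaled by gene length and library depth, which allows levels of different genes to be set side by side. The targeted gene checks the labels: Gdf11 was at 2.76, 2.30 and 2.31 FPKM in control replicates 1, 2 and 3 and at 0.614, 0.601 and 0.778 FPKM in the shGDF11 replicates. It was lower in every shGDF11 library, at 27.1% of control (log2 fold change -1.34 ± 0.125 SE, limma adjusted p = 0.00079). Control replicate 1 stood apart from its group: the chi-square of its reads against the other controls was 13.6 and 18.3 per degree of freedom, against 5.45 between control replicates 2 and 3 and 3.42 to 3.98 among shGDF11 libraries. Counts are therefore also given without it. The labelled cell type was plain in every library, where 10 cardiomyocyte markers summed to 7235.5 to 9196 FPKM. The defining adipocyte genes Lep and Cfd were at 0 FPKM in all 6 libraries, and Plin1, Cidec, Retn and Adipoq were at or near 0, the highest value being 0.355 FPKM for Adipoq.

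Calls rest on limma with Benjamini-Hochberg adjustment, at a threshold of 0.05, over every gene whose mean level reached 0.5 FPKM. Of the 46 fatty acid genes, 44 passed that filter, and Acsl6 and Cpt1b did not. Plin5 passed with a mean of 1.02 FPKM in control and 0.402 FPKM in shGDF11, below the filter's value in the second group. With the Gdf11 hairpin 14 genes fell and 6 rose, or 45.5% of those tested, against 27.6% of all 15418 genes tested. Falls made up 31.8% of the 44 (13.1% of all genes) and rises 13.6% (14.4% of all genes). The median log2 fold change of the 44 was -0.12, against 0.01 for all genes. On the log2(FPKM + 0.5) scale none of the 20 called genes changed by as much as 1. In plain FPKM, Plin5 was at 39.2% and Pnpla2 at 49.9% of control. On the first scale the falls ran from -0.98 for Pnpla2 to -0.21 for Eci1, and the rises from 0.23 for Hadh to 0.90 for Dgat2. For 30 of the 44 genes the groups were fully apart, with all shGDF11 values on the same side of all control values, or 68.2%, against 45.8% of all genes tested.

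The counts moved with the genes tested, the libraries and the scaling. At a mean of at least 5 FPKM, 12 of 39 fatty acid genes fell and 8 rose, where 37.5% of all genes were called. With protein-coding genes only, 15 of 44 fell and 8 rose, where 35.8% of all genes were called. Without control replicate 1, 17 genes fell and 8 rose, where 27.5% of all genes were called. Without shGDF11 replicate 1 or without shGDF11 replicate 2, 9 fell and 4 rose, where 17.6% and 15.1% of all genes were called. After rescaling to TPM, 10 fell and 9 rose, with 25.2% of all genes called, and over all genes the rises went from 52.4% to 66.2% of calls. The sum that TPM divides by includes the gene Gm23935, which took 11.7% of summed FPKM in control replicate 1, 3.06% and 0.615% in the other controls and 0.347% to 0.733% in the shGDF11 libraries. With trends in GC content and gene length removed, 18 fell and 8 rose, and the share of all genes called went up as well, to 33.4%. The GC content of the longest transcript had a median of 53.74% for the genes that fell, 51.94% for those that rose and 50.07% for the 24 that were not called.

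**Figure D1:**
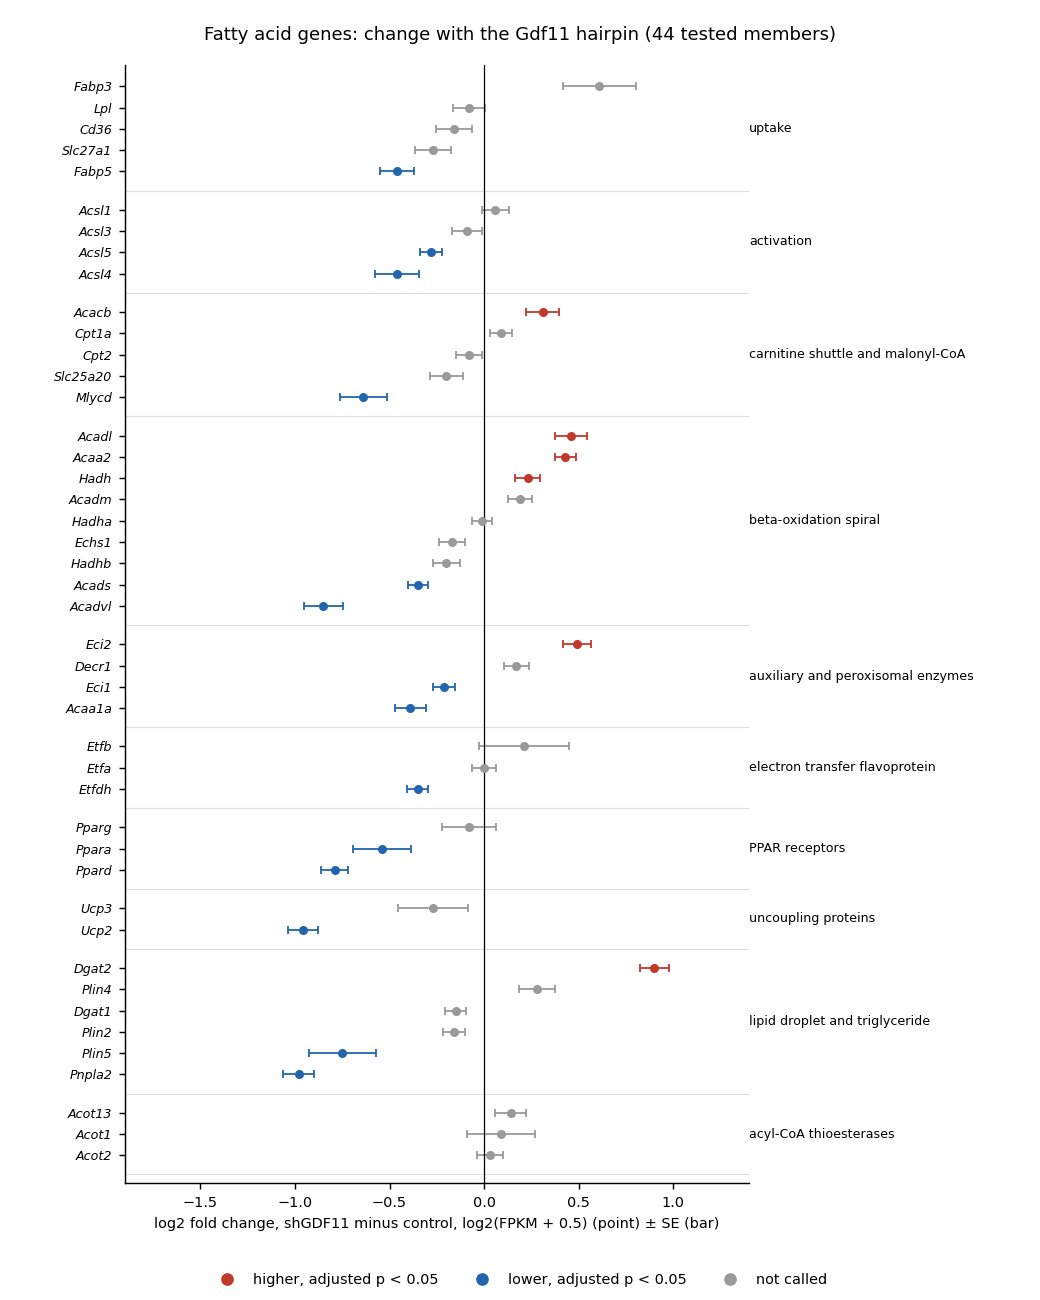
Log2 fold change (shGDF11 minus control, on log2(FPKM + 0.5)) with its standard error for the 44 tested fatty acid genes, grouped by role; red genes were called higher, blue genes lower and grey genes were not called. Calls in both directions stand within the malonyl-CoA, beta-oxidation, auxiliary and triglyceride groups, with Pnpla2 at -0.98 and Dgat2 at 0.90 at the ends.

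Of the called genes whose start site matched a RefSeq promoter entry, 2 falls (Pnpla2 and Acadvl) and both rises (Acadl and Hadh) are shown by the 250 bases before the RefSeq start, because PPAR and ERR receptors, regulators of this pathway, bind the half-site AGGTCA, and many promoters without a TATA box carry the GC box GGGCGG. These were chosen after the values were seen. The windows of Ucp2 and Ppard, which also fell, reach 21 and 54 bases past the start of the gene in the deposited table and are not printed. Sequences are from RefSeq on GRCm38.p6, written 5′ to 3′ on the strand of the gene, with capitals marking a match to AGGTCA or GGGCGG on either strand.
Pnpla2 chr7:141454938-141455187 (plus strand): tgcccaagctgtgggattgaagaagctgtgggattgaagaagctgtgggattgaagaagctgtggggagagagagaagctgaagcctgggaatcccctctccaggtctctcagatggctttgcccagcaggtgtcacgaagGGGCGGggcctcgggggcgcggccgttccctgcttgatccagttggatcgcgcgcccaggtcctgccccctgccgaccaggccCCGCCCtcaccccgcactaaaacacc
Acadvl chr11:70015429-70015678 (minus strand): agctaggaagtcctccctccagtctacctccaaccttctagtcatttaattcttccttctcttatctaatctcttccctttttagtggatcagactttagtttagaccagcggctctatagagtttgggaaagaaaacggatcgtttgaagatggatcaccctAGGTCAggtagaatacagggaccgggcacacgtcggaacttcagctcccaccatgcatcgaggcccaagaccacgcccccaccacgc
Acadl chr1:66863310-66863559 (minus strand): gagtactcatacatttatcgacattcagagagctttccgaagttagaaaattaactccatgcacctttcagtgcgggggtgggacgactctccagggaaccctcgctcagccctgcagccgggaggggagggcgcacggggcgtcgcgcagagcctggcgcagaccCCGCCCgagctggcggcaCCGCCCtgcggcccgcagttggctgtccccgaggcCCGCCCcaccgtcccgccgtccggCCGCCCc
Hadh chr3:131272102-131272351 (minus strand): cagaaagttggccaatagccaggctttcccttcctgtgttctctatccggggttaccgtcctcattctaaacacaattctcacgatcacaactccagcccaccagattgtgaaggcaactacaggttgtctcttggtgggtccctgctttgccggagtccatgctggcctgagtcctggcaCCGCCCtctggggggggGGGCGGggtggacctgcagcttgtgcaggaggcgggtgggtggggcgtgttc
The half-site stood once in the window of Acadvl, which fell, and in none of the other 3 windows printed. GC boxes stood in the windows of Pnpla2, which fell (2), and of the genes that rose (Acadl 4, Hadh 2), and not in that of Acadvl. Of the 46 genes, 28 matched a promoter entry within 100 bases of the table's start. Among these windows the half-site AGGTCA was found in 8 (Acsl6, Cpt1a, Acadvl, Acadm, Echs1, Ucp3, Plin2 and Plin5), against 14% of 32851 RefSeq promoters searched over the same length. GGGCGG was found in 18 of the 28, against 32.7% of all promoters. A direct repeat of AGGTCA with 1 base of any kind between, the form PPARs bind, was in none of the 28 and in 0.0335% of all promoters. The longer ERR element TCAAGGTCA was in 1 of the 28, that of the untested Acsl6, and in 0.387% of all promoters. The hypoxia core ACGTG was in those of Acadvl and Ppard, against 16.6% of all promoters. The CCAAT box was in 14 of the 28, against 33.8% of all promoters. The 28 windows are 1 per gene and were chosen by distance to the start, while all 32851 entries were searched without such a choice. The 2 sets are thus unlike, and no difference between them was tested. Both strands were searched in each case, and matches are descriptions of these letters only.

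Among the 5 uptake genes, 1 fell and 4 were not called, or 20% called against 27.6% of all genes. Fabp3, the heart-type fatty acid binding protein and the most abundant of all 46 genes, was at 332, 202 and 197 FPKM in the controls and at 359.7, 372 and 355 FPKM in the shGDF11 libraries. Control replicate 1 lay near the shGDF11 values and the other controls far below, though the groups did not overlap. Fabp3 differed by 0.61 ± 0.192 (SE) on the log2 scale and was not called (limma adjusted p = 0.053). Without control replicate 1 it was 0.86 (limma adjusted p = 0.00056), and over 20 alternatives the limma adjusted p ran from 0.00056 to 0.15, under the threshold in 9. A share of 37.3% of the 50-base words in its transcripts also occurs in transcripts of other genes, mainly the pseudogene Fabp3-ps1, which held 10 to 20 reads per library against 2649 to 5008 for Fabp3, and 19.6% of its exon bases lie opposite Gm10570 and Zcchc17.

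Fabp5, the epidermal-type binding protein, fell. Its level was 32.3, 26.2 and 30.9 FPKM in the controls and 21.8, 22.6 and 20.1 FPKM with the hairpin, with no overlap. The change was -0.46 ± 0.0912 (SE) on the log2 scale (limma adjusted p = 0.011). The FPKM ratio of Fabp5 to Fabp3 within a library was 0.0972, 0.130 and 0.157 in the controls and 0.0605, 0.0608 and 0.0565 in the shGDF11 libraries, so Fabp3 remained the predominant form in each.

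Cd36, the membrane fatty acid translocase, was at 68.0, 77.4 and 87.6 FPKM in the controls and 69.0, 71.8 and 66.1 FPKM with the hairpin. The groups overlapped, and the 95% interval of its log2 fold change was -0.39 to 0.06 (limma adjusted p = 0.25). Lpl, the lipase that frees fatty acids from lipoproteins, was at 139, 168 and 169.5 FPKM against 148, 152 and 149.5 FPKM, again with overlap (interval -0.28 to 0.13, limma adjusted p = 0.55). In both genes control replicate 1 was the lowest control. Without it both were called lower, Cd36 by -0.25 (limma adjusted p = 0.044) and Lpl by -0.17 (limma adjusted p = 0.036). Slc27a1, the transport protein FATP1, was at 11.7, 11.0 and 9.42 FPKM against 8.83, 8.14 and 9.31 FPKM. The groups just failed to meet (limma adjusted p = 0.074), and it was called under 5 alternatives, among them without control replicate 3 (log2 fold change -0.36, limma adjusted p = 0.027).

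Acyl-CoA synthetases trap fatty acids in the cell by joining them to coenzyme A. Acsl1, the main form of the adult heart, was at 13.1, 14.4 and 14.2 FPKM in control and 13.5, 15 and 15.3 FPKM in shGDF11. These values overlapped, and Acsl1 was called under none of 20 alternatives (interval -0.11 to 0.24). Acsl3, a form found on lipid droplets, also overlapped, at 9.83 ± 0.545 and 9.23 ± 0.762 FPKM (mean ± SD, control first, n = 3 libraries, as in later values of this form; limma adjusted p = 0.45), and Acsl6 held 7 to 15 reads per library and was not tested. The ratio of Acsl3 to Acsl1 was 0.707 ± 0.0368 in control and 0.634 ± 0.044 in shGDF11.

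The other 2 synthetases fell, or 50% of those tested, against 13.1% of all genes. Acsl4, which prefers arachidonic acid, was at 11.4, 13.7 and 15.8 FPKM in the controls and 9.18, 10.2 and 9.83 FPKM with the hairpin. All shGDF11 values lay below the lowest control (log2 fold change -0.46, limma adjusted p = 0.027). Acsl5 was at 12, 12.1 and 11.4 FPKM against 9.43, 9.75 and 9.65 FPKM, also without overlap (log2 fold change -0.28 ± 0.0584 SE, limma adjusted p = 0.013). The call of Acsl4 was lost without control replicate 2 (limma adjusted p = 0.076), without any 1 shGDF11 library (0.065 to 0.089), with no filter on low values (0.064) and after rescaling to TPM (0.11). That of Acsl5 was lost without shGDF11 replicate 1 (limma adjusted p = 0.053) and after rescaling to TPM (0.092). Of the exon bases of Acsl5, 8.31% lie opposite those of Zdhhc6, which was at 131.1% of control.

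The carnitine shuttle itself was not called. Cpt1a, the outer-membrane carnitine palmitoyltransferase that prevails in liver and in the newborn heart, was at 35.4, 37.1 and 38.4 FPKM in the controls and 38.7, 40.6 and 38.3 FPKM in the shGDF11 libraries. The groups overlapped, and its log2 fold change lay between -0.05 and 0.22 (95% interval, limma adjusted p = 0.30). Cpt2, the inner-membrane enzyme, was at 45.1, 51.4 and 50.8 FPKM against 46.7, 44.8 and 47.3 FPKM, with overlap (limma adjusted p = 0.40). Slc25a20, the carnitine carrier, was at 14, 11.4 and 13.8 FPKM against 11.2, 11.3 and 11.2 FPKM. It was not called (limma adjusted p = 0.12) and was called lower without control replicate 2 (log2 fold change -0.29, limma adjusted p = 0.029). Cpt1b, the form of adult heart and skeletal muscle, held 27, 5 and 0 reads in the controls and 17, 7 and 15 in the shGDF11 libraries. Its level cannot be read from these counts: 81.4% of its exon bases are shared with Gm44502, a gene on the same strand that is at 0 reads in all 6 libraries, and reads in shared bases may not have been assigned to either gene.

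The pair of enzymes that make and remove malonyl-CoA moved in opposite directions. Acacb, acetyl-CoA carboxylase 2, which makes malonyl-CoA at the mitochondrial surface, was at 15.6, 16.2 and 14 FPKM in the controls and 17.7, 18.5 and 21 FPKM in the shGDF11 libraries. It rose without overlap, by 0.31 ± 0.0871 (SE) on the log2 scale (limma adjusted p = 0.037). Mlycd, malonyl-CoA decarboxylase, which removes it, was at 16.2, 13.7 and 11.7 FPKM against 9.25, 7.78 and 9.04 FPKM. Mlycd fell to 62.6% of control (log2 fold change -0.64 ± 0.124 SE, limma adjusted p = 0.011) and was called under each of 20 alternatives. The rise of Acacb was less firm, since it was lost without any 1 of the 6 libraries (limma adjusted p = 0.054 to 0.11), with a replicate block, with no filter and with a constant prior variance (0.059 to 0.090). The ratio of Acacb to Mlycd was 0.962, 1.18 and 1.2 in the controls and 1.92, 2.38 and 2.33 with the hairpin.

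Of the 9 genes of the mitochondrial spiral, 3 rose and 2 fell, or 55.6% called against 27.6% of all genes. The 4 acyl-CoA dehydrogenases, which take the first step on chains of different length, went separate ways. Acadvl, the very-long-chain enzyme of the inner membrane, was at 45, 38.0 and 34.8 FPKM in the controls and 22.3, 19.9 and 22.2 FPKM with the hairpin. Every shGDF11 library lay far below every control, at 54.7% of the control mean (log2 fold change -0.85 ± 0.102 SE, limma adjusted p = 0.0017). Acadl, the long-chain enzyme of the matrix, was at 140.4, 146 and 169 FPKM against 209.5, 219.5 and 196 FPKM. It rose without overlap (log2 fold change 0.46 ± 0.0864 SE, limma adjusted p = 0.0092), and both calls held under all 20 alternatives.

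Acads, the short-chain dehydrogenase, was at 38.0, 38.7 and 36.6 FPKM in the controls and 29.9, 29.0 and 29.6 FPKM in the shGDF11 libraries, with little spread in either group. It fell by 0.35 on the log2 scale (limma adjusted p = 0.0038), and with trends in GC content and length removed the value was -0.18 (limma adjusted p = 0.095). Acadm, the medium-chain dehydrogenase, was at 69.8, 65.5 and 68.4 FPKM against 76.8, 82.1 and 73.8 FPKM. The groups did not overlap, but Acadm was not called (log2 fold change 0.19 ± 0.0619 SE, limma adjusted p = 0.060). It was called under 4 alternatives, among them after rescaling to TPM (0.28, limma adjusted p = 0.025). Of the exon bases of Acadvl, 42.9% lie opposite those of Dvl2, and the strand setting of the counting is not given in the sources used here. Dvl2 held 404 to 624 reads per library and was at 78.7% of control, while Acadvl held 1526 to 1898 reads in the controls and 874 to 983 with the hairpin.

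The later steps held 2 of the rises and no fall. Hadh, the 3-hydroxyacyl-CoA dehydrogenase for shorter chains, was at 28.1, 29.1 and 31.4 FPKM in the controls and 36.6, 34.2 and 33.2 FPKM with the hairpin (log2 fold change 0.23, limma adjusted p = 0.044). Acaa2, the mitochondrial thiolase that closes the spiral, was at 132.5, 128.5 and 127.6 FPKM against 181, 175 and 169.6 FPKM. Both were higher in every shGDF11 library than in any control. Acaa2 rose by 0.43 ± 0.0548 (SE) on the log2 scale (limma adjusted p = 0.0020) and was called under all 20 alternatives. The call of Hadh was lost when control replicate 1 or 2, or any 1 shGDF11 library, was left out (limma adjusted p = 0.073 to 0.14), and also with a replicate block, with no filter and with a constant prior variance (0.074 to 0.11).

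Hadha and Hadhb encode the 2 subunits of the trifunctional protein, which handles long chains, and start 86 bases apart on opposite strands of chromosome 5. Hadha was at 60.3, 57.9 and 59.6 FPKM in control and 57.5, 58.5 and 60.2 FPKM in shGDF11, with overlap and an interval of the log2 fold change of -0.13 to 0.11. Hadhb was at 44.4, 48.1 and 51.0 FPKM against 43.0, 42.2 and 39.2 FPKM. The Hadhb groups did not overlap, and the gene was not called (log2 fold change -0.20, limma adjusted p = 0.075). It was called without control replicate 1 (-0.25, limma adjusted p = 0.027) and with GC and length trends removed (-0.31, limma adjusted p = 0.0031). The level of Hadhb is less certain, since 19.7% of its 50-base words occur in other genes, among them Gm13910. Gm13910 held 1182 to 1454 reads per library and was at 89.3% of control, while Hadhb held 4176 to 5482 reads. Echs1, the short-chain enoyl-CoA hydratase, was at 19.8, 18.9 and 19.8 FPKM against 18.7, 16.8 and 16.4 FPKM. It was not called (limma adjusted p = 0.11), except with GC and length trends removed (limma adjusted p = 0.042). Summed over the 9 genes of the spiral, the level was 578, 570.4 and 598 FPKM in the controls and 675, 677 and 640.5 FPKM in the shGDF11 libraries, or 114% of control, a sum to which Acadl and Acaa2 contribute most.

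**Figure D2:**
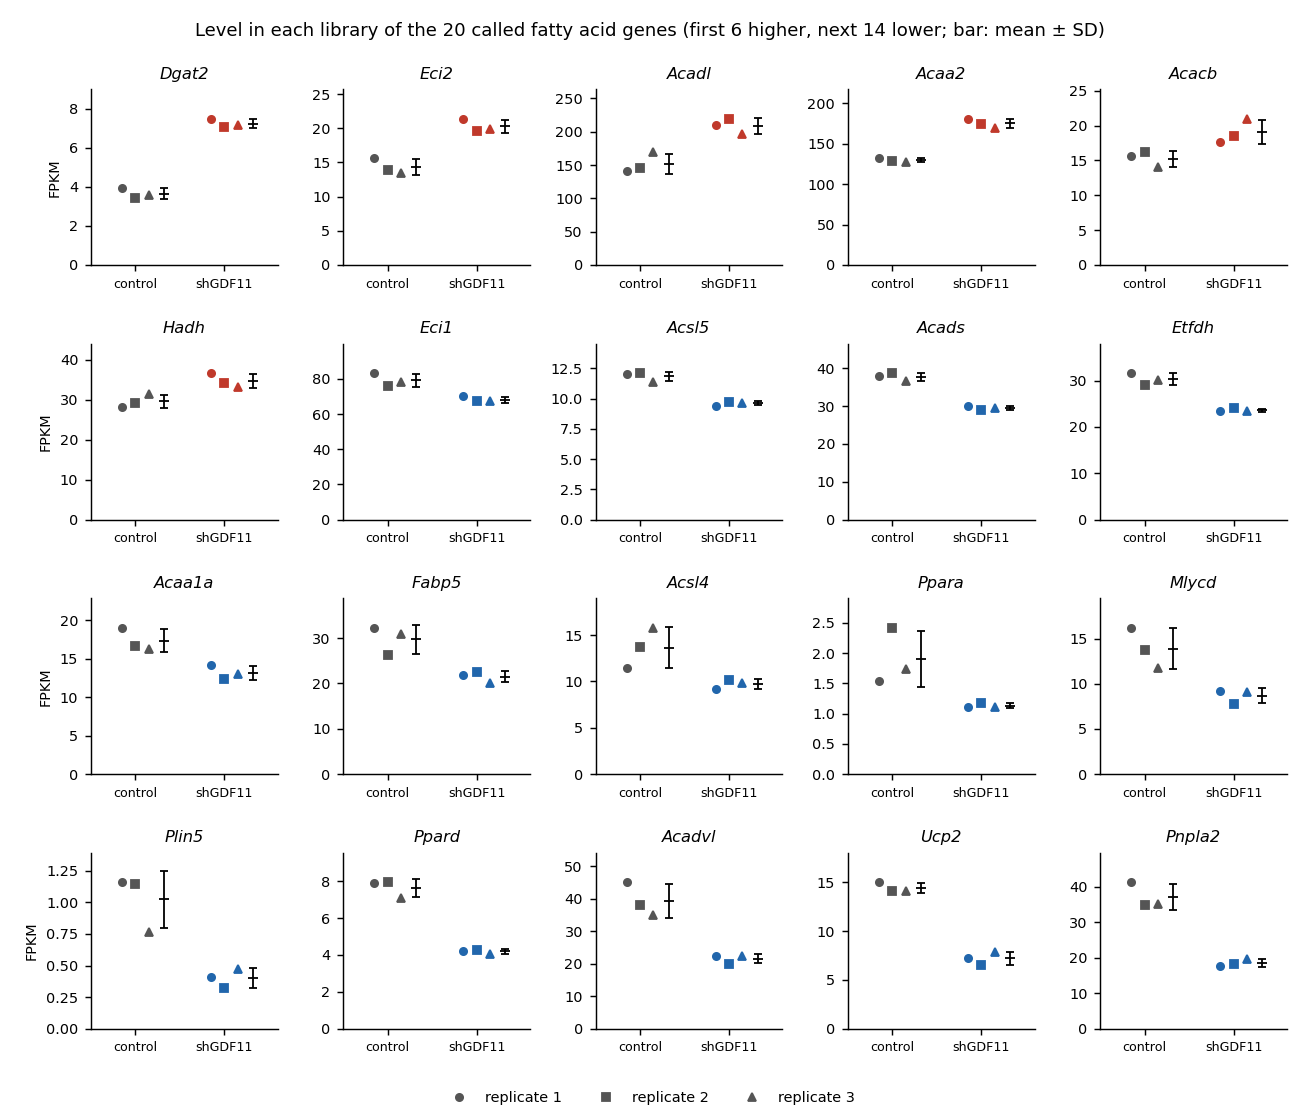
FPKM in each library of the 20 called fatty acid genes, in control (grey) and shGDF11 (red for genes called higher, blue for genes called lower), with the mean and SD beside each group. In each panel the shGDF11 values lie wholly above or wholly below the control values, as for 45.8% of all genes tested. The genes were selected by a test on these same values, which favours such separation.

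Enzymes that prepare unsaturated chains and the peroxisomal thiolase also split. Eci2, an enoyl-CoA isomerase of peroxisomes and mitochondria, rose from 15.6, 13.9 and 13.5 FPKM in the controls to 21.4, 19.6 and 19.9 FPKM (limma adjusted p = 0.0041, log2 fold change 0.49 ± 0.074 SE). Of its 50-base words 11.1% occur in other genes, among them Gm15287 and Eci3. Eci1, the mitochondrial isomerase, was at 83.2, 75.7 and 78.4 FPKM against 70.2, 67.2 and 67.2 FPKM and fell (log2 fold change -0.21, limma adjusted p = 0.035). The 2 isomerases thus moved in opposite directions, each without overlap. Acaa1a, the peroxisomal thiolase, fell from 19.0, 16.6 and 16.3 FPKM to 14.1, 12.3 and 13 FPKM (log2 fold change -0.39, limma adjusted p = 0.015). Reads of Acaa1a may be shared with its copy Acaa1b, since 17.1% of its 50-base words occur in other genes. Acaa1b was at 2.00 to 2.43 FPKM in the controls and 0.654 to 0.837 FPKM with the hairpin. Decr1, the dienoyl-CoA reductase, was at 21.3, 20.8 and 23.6 FPKM against 24.9, 24.1 and 25.2 FPKM. It was not called (limma adjusted p = 0.099), except with library weights (0.037) and without control replicate 3 (log2 fold change 0.23, limma adjusted p = 0.039). The fall of Eci1 was lost under 8 alternatives, among them without control replicate 3 or any 1 shGDF11 library (limma adjusted p = 0.060 to 0.13) and after rescaling to TPM (-0.12, limma adjusted p = 0.18). The fall of Acaa1a was lost without shGDF11 replicate 2 or 3 (limma adjusted p = 0.063 and 0.057).

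Electrons from the dehydrogenases pass to the electron transfer flavoprotein and then, through its dehydrogenase Etfdh, to ubiquinone. Etfdh was at 31.6, 29.1 and 30.2 FPKM in the controls and 23.4, 24.0 and 23.4 FPKM with the hairpin. It fell to 77.9% of control with no overlap (log2 fold change -0.35 ± 0.056 SE, limma adjusted p = 0.0048), under all 20 alternatives. Etfa, the alpha subunit, was at 88.0, 81.8 and 82.3 FPKM against 84.6, 88.0 and 80.1 FPKM. These overlapped, with an interval of the log2 fold change of -0.14 to 0.15. Etfb, the beta subunit, was at 12.3, 6.08 and 6.79 FPKM in the controls and 8.47, 9.70 and 9.80 FPKM with the hairpin. Control replicate 1 was the highest of all 6 libraries and the other controls the lowest, so the groups overlapped (limma adjusted p = 0.56). Without control replicate 1 Etfb was called higher (log2 fold change 0.50, limma adjusted p = 0.011). Its level is uncertain because 58.2% of its exon bases are shared with the same-strand genes Gm45233, at 0 reads in all libraries, and Mir7051, at 0 to 4 reads.

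The PPAR receptors, which bind fatty acids and act on their target genes together with RXR, were low in level, and 2 of 3 fell. That was 66.7% of a very small group, against 13.1% of all genes tested. Ppard was at 7.89, 7.94 and 7.07 FPKM in the controls and 4.22, 4.29 and 4.05 FPKM with the hairpin. Each shGDF11 library was near 54.8% of the control mean (log2 fold change -0.79 ± 0.0729 SE, limma adjusted p = 0.00077), and the call held under all 20 alternatives. Ppara, the receptor best known for control of fatty acid oxidation, was at 1.54, 2.42 and 1.73 FPKM against 1.11, 1.18 and 1.11 FPKM, or 93 to 155 against 69 to 74 reads. It fell by 0.54 ± 0.153 (SE) on the log2 scale (limma adjusted p = 0.039), but not when control replicate 2 or 3, or any 1 shGDF11 library, was left out (limma adjusted p = 0.060 to 0.10). The call of Ppara was also lost with no filter (limma adjusted p = 0.11), after rescaling to TPM (0.082) and with the replicate block (0.056). Pparg, the receptor of fat cells, was at 1.42, 1.58 and 1.81 FPKM and 1.63, 1.72 and 1.18 FPKM, with overlap (interval -0.42 to 0.27). The ratio of Ppard to Ppara was 4.16 ± 0.921 in control and 3.69 ± 0.0937 in shGDF11, so Ppard remained the more abundant transcript.

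Ucp2, a mitochondrial carrier found in many cell types, including macrophages, was at 15, 14.1 and 14.1 FPKM in the controls and 7.24, 6.53 and 7.84 FPKM in the shGDF11 libraries. It fell in each library, with the smallest adjusted p of the 44 genes (log2 fold change -0.96 ± 0.0791 SE, limma adjusted p = 0.00054). Ucp3, the form of muscle, was near the filter at 0.812, 0.861 and 1.19 FPKM against 0.699, 0.915 and 0.514 FPKM. These overlapped and Ucp3 was not called (limma adjusted p = 0.32). The ratio of Ucp2 to Ucp3 was 15.6 ± 3.38 in control and 10.9 ± 4.09 in shGDF11, a difference within the spread of the libraries.

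Storage and release of triglyceride held the largest change in each direction, also in plain FPKM, where Plin5 and not Pnpla2 had fallen furthest. Plin5 passed the filter only through its control level, at 0.402 FPKM with the hairpin. Pnpla2, adipose triglyceride lipase, which takes the first fatty acid from triglyceride, was at 41.3, 35 and 35.2 FPKM in the controls and 17.8, 18.1 and 19.7 FPKM with the hairpin. It fell to 49.9% of control in a range well below every control library (log2 fold change -0.98 ± 0.083 SE, limma adjusted p = 0.00058). Dgat2, 1 of the 2 enzymes that complete triglyceride, was at 3.96, 3.44 and 3.58 FPKM against 7.50, 7.05 and 7.18 FPKM. It rose 1.98-fold (log2 fold change 0.90 ± 0.0754 SE, limma adjusted p = 0.00057), and like Pnpla2 it was called under all 20 alternatives. Dgat1, the other enzyme of that step, was at 13.1, 13.2 and 12.5 FPKM against 11.5, 11.5 and 11.9 FPKM and was not called (log2 fold change -0.15, limma adjusted p = 0.097), although the groups did not overlap. The ratio of Dgat2 to Dgat1 was 0.302, 0.260 and 0.286 in the controls and 0.649, 0.614 and 0.604 with the hairpin, so Dgat1 was the more abundant of both in each library. Dgat1 was called lower with library weights (limma adjusted p = 0.043).

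Perilipins coat lipid droplets. Plin2, the general coat protein, was at 39.3, 41.7 and 41.5 FPKM in the controls and 37.1, 35 and 37.5 FPKM with the hairpin. Its groups did not overlap and it was not called (log2 fold change -0.16, limma adjusted p = 0.079), except with library weights (0.027) and without control replicate 1 (-0.19, limma adjusted p = 0.044). Plin4, found in muscle and fat, was at 8.65, 7.79 and 6.87 FPKM against 8.89, 9.89 and 9.74 FPKM. It was not called (log2 fold change 0.28, limma adjusted p = 0.067), and it was called higher under 7 alternatives, among them without control replicate 1 (0.36, limma adjusted p = 0.026). Plin5, the perilipin of oxidative tissues, which holds the lipase at the droplet, was at 38, 40 and 26 reads in the controls and 14, 11 and 16 reads with the hairpin. In FPKM this was 1.16, 1.15 and 0.764 against 0.408, 0.322 and 0.475, and Plin5 fell (log2 fold change -0.75 ± 0.177 SE, limma adjusted p = 0.021). With a pseudocount of 0.1 FPKM the log2 fold change was -1.31, because the added 0.5 damps the change of so low a gene. The call was lost without control replicate 1 or 2 and without shGDF11 replicate 1 or 2 (limma adjusted p = 0.055 to 0.071) and with the replicate block (0.058).

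The thioesterases, which split acyl-CoA back into free acid, were not called. Acot13, a small mitochondrial thioesterase, was at 148, 158 and 178 FPKM in control and 175, 185 and 173 FPKM in shGDF11, and the groups overlapped (interval of the log2 fold change -0.05 to 0.33). Acot2, a mitochondrial form, was at 7.43 ± 0.0895 and 7.63 ± 0.526 FPKM (interval -0.13 to 0.20). Acot1, its cytosolic copy, was at 2.34 ± 0.487 and 2.54 ± 0.557 FPKM (interval -0.33 to 0.52). The latter pair share 50-base words with each other and with their neighbours (19.2% of those of Acot1 and 27.7% of those of Acot2), so their separate levels are uncertain.

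**Figure D3:**
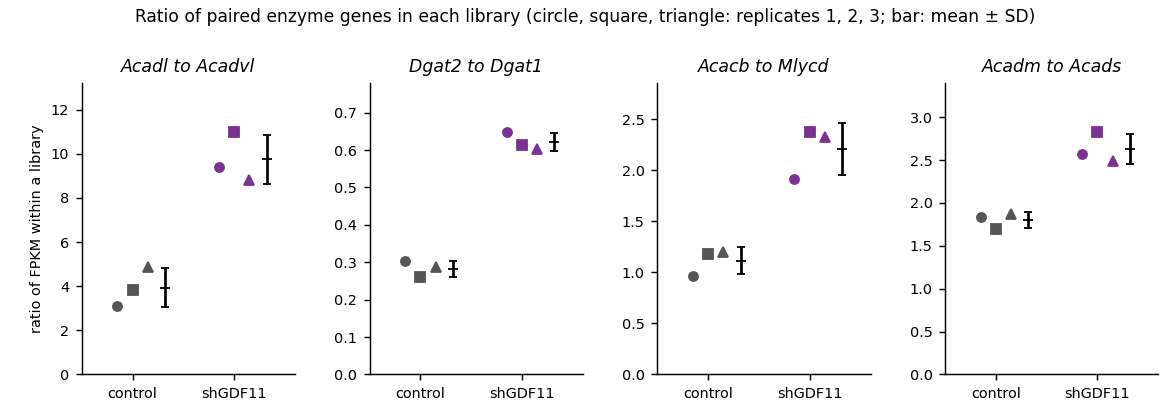
Ratio of the FPKM of 2 fatty acid genes within each library for 4 pairs chosen after their values were seen, in control (grey) and shGDF11 (purple), with the mean and SD beside each group. The ratio of Acadl to Acadvl was 3.12 to 4.85 in the controls and 8.82 to 11.0 with the hairpin, and in none of the 4 pairs did the groups overlap.

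The 4 ratios plotted by library set genes of 1 step or of opposed steps side by side and do not depend on the scaling of the libraries. Acadl to Acadvl was 3.94 ± 0.866 in control and 9.76 ± 1.16 in shGDF11. Acadm to Acads was 1.84, 1.70 and 1.87 in the controls and 2.57, 2.83 and 2.49 with the hairpin. Because the pairs were picked for members that had moved apart, the ratios are a description and were not tested.

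A wider list of 83 genes of fatty acid handling was read in the same way, of which 77 were tested. Here 21 fell and 9 rose, or 39% called against 27.6% of all genes tested. The falls were 27.3% of the list (13.1% of all genes) and the rises 11.7% (14.4% of all genes), with a median log2 fold change of -0.15. After rescaling to TPM, 11 fell and 12 rose. Among 12 genes of uptake and delivery 4 fell and 3 rose, or 58.3% called against 27.6% of all genes. Angptl4, an inhibitor of lipoprotein lipase and a known PPAR target, fell from 7.96, 7.65 and 7.89 FPKM to 5.30, 4.87 and 4.47 FPKM (limma adjusted p = 0.0017). Slc27a4, the transport protein FATP4, fell from 19.5 to 14.9 FPKM, a call lost without shGDF11 replicate 1 or 2 (limma adjusted p up to 0.061). Dbi, the acyl-CoA binding protein, rose from 172.5, 161 and 208.5 FPKM to 268.5, 267.5 and 261 FPKM (log2 fold change 0.56, limma adjusted p = 0.0071). Cav1, caveolin 1, rose from 21.2 to 27.1 FPKM, and not without shGDF11 replicate 2 (limma adjusted p = 0.057).

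Of 13 tested peroxisomal genes 4 fell and 0 rose, or 30.8% called, near the 27.6% of all genes called in either direction. By direction, 30.8% of these genes fell and 0% rose, against 13.1% and 14.4% of all genes. Pex11a, which promotes peroxisome division, fell from 2.72, 2.45 and 2.66 FPKM to 1.09, 1.30 and 1.11 FPKM (log2 fold change -0.90, limma adjusted p = 0.0014). Scp2, the thiolase and sterol carrier, fell from 66.9 to 50.6 FPKM (limma adjusted p = 0.0021). Hsd17b4 and Ehhadh, which encode the 2 multifunctional enzymes of peroxisomes, fell from 31.2 to 25.6 FPKM and from 5.19 to 3.53 FPKM (limma adjusted p = 0.014 and 0.036). Hsd17b4 was not called after rescaling to TPM (limma adjusted p = 0.14) or without shGDF11 replicate 1 or 3. Ehhadh was not called under 7 alternatives, among them without control replicate 2 or 3 or shGDF11 replicate 2 or 3 (limma adjusted p up to 0.12). Of 6 tested genes of carnitine handling, Crat, carnitine acetyltransferase, rose from 24.7 to 31.6 FPKM (limma adjusted p = 0.0043) and Aldh9a1, of carnitine synthesis, fell from 10.2 to 8.25 FPKM (0.011, or 0.098 after rescaling to TPM). Aldh9a1 was also not called without shGDF11 replicate 2.

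Among 17 tested genes of droplets and triglyceride 6 fell and 1 rose, or 41.2% called against 27.6% of all genes. Hilpda, a droplet protein that inhibits the lipase encoded by Pnpla2 and is induced by low oxygen, was at 25.1, 22.7 and 19.5 FPKM in the controls and 5.96, 7.20 and 6.13 FPKM with the hairpin. Its log2 fold change of -1.72 (limma adjusted p = 0.00028) was larger in size than that of any of the 46 genes. Fitm1, which helps form droplets in muscle, fell from 20.5 to 12.5 FPKM (limma adjusted p = 0.0061), and the phosphatidate phosphatase genes Lpin1 and Lpin3 from 21.5 to 17.6 and from 2.64 to 1.44 FPKM (limma adjusted p = 0.010 and 0.011). Lpin1 was not called after rescaling to TPM (limma adjusted p = 0.13). Other mitochondrial and cytosolic enzymes gave 4 falls and 1 rise among 11, or 45.5% called. Acot7 went down from 30.3 to 21.8 FPKM (limma adjusted p = 0.0040). Acaca, acetyl-CoA carboxylase 1, rose from 2.17 to 2.98 FPKM (limma adjusted p = 0.012), and was not called without shGDF11 replicate 2 or 3. The acyl-CoA dehydrogenase genes Acad11 and Acad12 fell from 10.7 to 8.69 FPKM and from 2.44 to 1.39 FPKM (limma adjusted p = 0.014 and 0.025). Without shGDF11 replicate 1 or 3 neither was called, nor was Acad12 without shGDF11 replicate 2 or control replicate 2.

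Of 18 tested regulators 3 rose and 2 fell, or 27.8% called, near the share of all genes. Esrrg, the estrogen-related receptor gamma, which drives oxidative genes after birth, was at 3.28, 3.73 and 3.90 FPKM in the controls and 7.47, 7.35 and 6.98 FPKM with the hairpin (log2 fold change 0.91, limma adjusted p = 0.00069). Prkaa1, a catalytic subunit of AMP kinase, rose from 9.08 to 14.9 FPKM (limma adjusted p = 0.0022), and Pdk4, a kinase that restrains pyruvate oxidation, from 6.33 to 9.42 FPKM (limma adjusted p = 0.0047). Ppargc1b, a coactivator of these receptors, fell from 7.89 to 5.79 FPKM (limma adjusted p = 0.011). All 4 were called under each of the 20 alternatives.

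**Figure D4:**
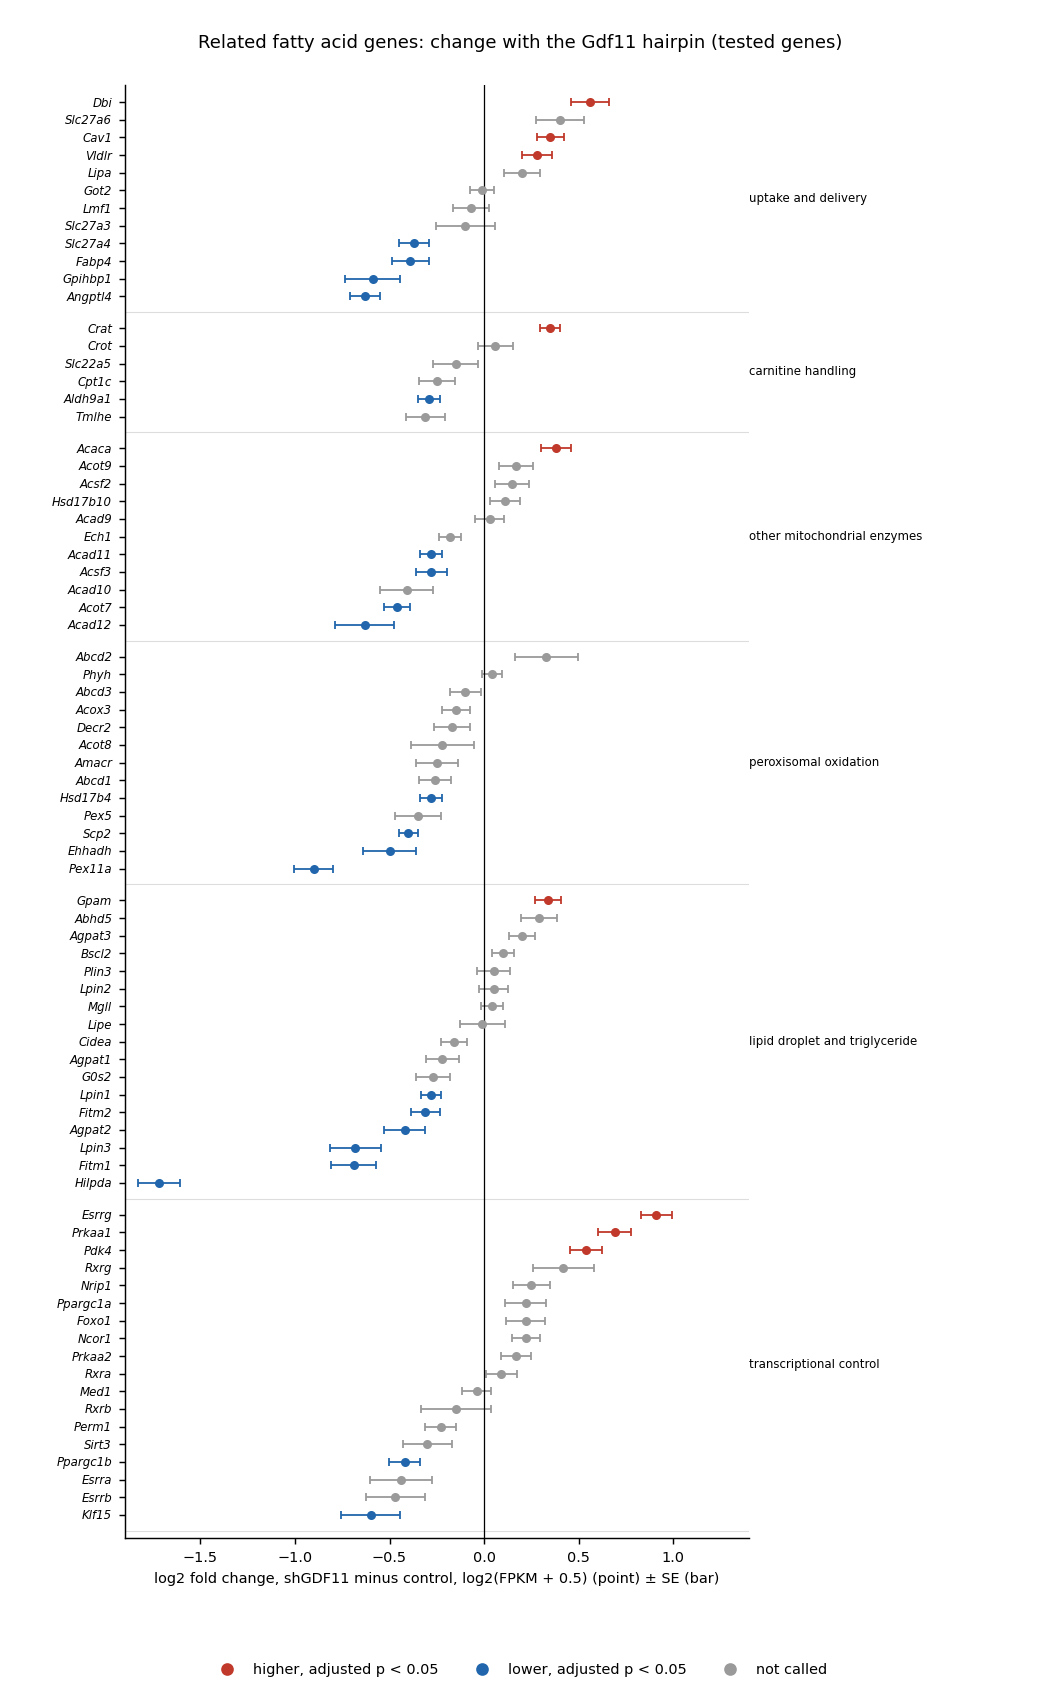
Log2 fold change (shGDF11 minus control, on log2(FPKM + 0.5)) with its standard error for 77 tested genes of fatty acid handling outside the 46, grouped by role and coloured by call. Hilpda at -1.72 and Esrrg at 0.91 stand at the ends. The peroxisomal group holds 4 falls and 0 rises among 13 genes, where 13.1% of all genes fell and 14.4% rose.

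Markers of cardiomyocytes and of other cell types moved with the same comparison, in which 13.1% of all genes tested fell and 14.4% rose, or 27.6% called. Of 8 endothelial markers 6 fell and 0 rose, with a summed level of 68.7 to 74.5 FPKM in the controls and 47.7 to 50.5 FPKM with the hairpin, and none at 0. Among 7 macrophage markers, 6 were tested and 3 fell (summed 52.4 to 60.7 against 40.0 to 45.3 FPKM), none of the 7 being at 0. The falls were C1qa, C1qb and Mrc1, at 59.8%, 55.4% and 67.7% of control. Not called were Cd68 (85.9%), the largest part of the sum, Csf1r (100.5%) and Adgre1 (103%). Smooth muscle markers fell in 4 of 6 cases (1001 to 1077 against 397 to 403 FPKM). That sum was mostly Acta2 (956 to 1024 against 367 to 374 FPKM). Myh11 also fell, from a mean of only 2.44 to 1.59 FPKM. Which cells the Acta2 transcripts came from was not tested. Of the 4 falls, Tagln (0.672 to 1.18 against 0.275 to 0.522 FPKM) passed the filter only through its control level. Pdgfrb and Rgs5, at 104.3% and 100.6% of control, were not called. Of 8 fibroblast markers 1 rose (347 to 401 against 408 to 414 FPKM), and of 5 epicardial markers 2 rose (11.1 to 12.3 against 18.4 to 20 FPKM). Of the latter, Upk3b (0.357 to 0.434 against 1.07 to 1.31 FPKM) passed only through its level with the hairpin. Most of the epicardial sum was Tbx18 (mean 8.34 against 14.1 FPKM). Wt1, Msln and Upk1b, at 91.4%, 124.2% and 181.3% of control, were not called. These macrophage, smooth muscle and epicardial genes were named after their values were seen. Of 10 cardiomyocyte markers 5 fell and 2 rose (8916 to 9196 against 7235.5 to 7496 FPKM). The largest part of that sum was Actc1, which fell from a mean of 4187 to 2767 FPKM. Myl2 and Tnni3 rose, to 149.7% and 125.9% of control. The other falls were to between 68.4% (Myl3) and 82.2% (Ryr2) of control. Not called were Myh6 (83.3%), Tnnt2 (110.1%) and Ttn (113.4%). These cardiomyocyte genes were also named after their values were seen. Of 7 adipocyte markers 1 passed the filter and fell: Fabp4, named after its values were seen and also expressed by endothelial cells (8.37 to 6.26 FPKM). In bulk libraries fewer cells of a type and less RNA per cell cannot be told apart. The part of these cell types in the falls of Fabp5, Ucp2, Acsl4, Acsl5 or Ppard was not tested.

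Over 20 alternative settings, 11 of the 20 called genes kept their call in each: Fabp5, Mlycd, Acadvl, Acadl, Acaa2, Eci2, Etfdh, Ppard, Ucp2, Pnpla2 and Dgat2. Of the 24 genes not called, 13 were called under at least 1 alternative and 11 under none. No called gene changed direction under any setting that included it.

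**Figure D5:**
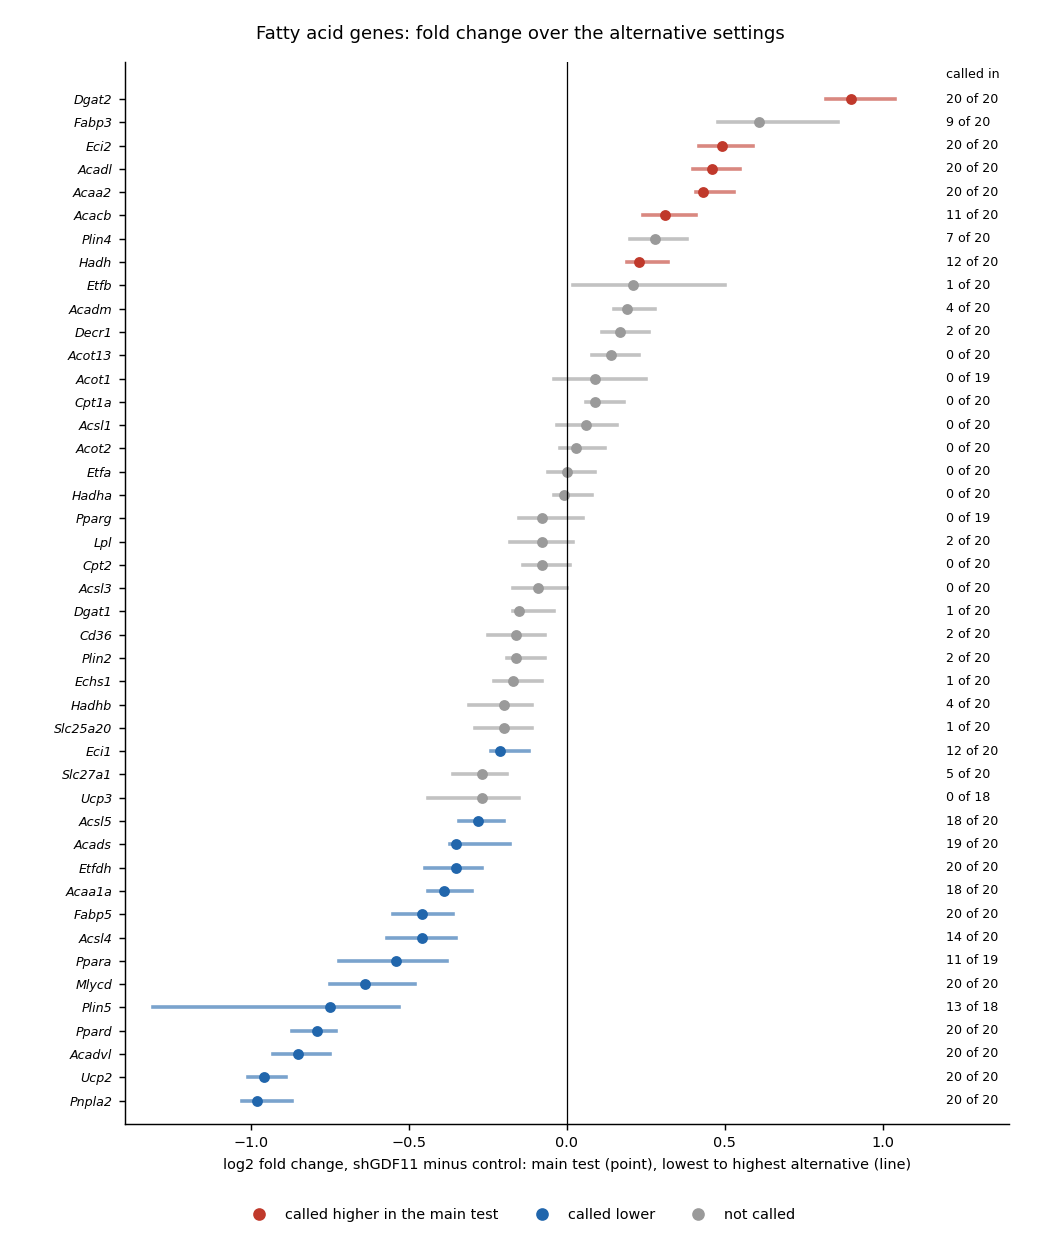
Log2 fold change of the 44 tested fatty acid genes in the main test (point) and its lowest and highest value over the alternatives (line), with the number of alternatives that called the gene at the right. The lines of all 20 called genes stay on 1 side of zero, and Plin5 has the widest, reaching -1.31.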

How the data were processed

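Libraries of cardiomyocyte RNA, 3 with a Gdf11 hairpin and 3 with a control hairpin, were grouped by their treatment label. The deposited table holds FPKM values that the authors computed per gene, beside gene length. Per the submitters' processing notes, the tools include featureCounts 1.5.0-p3, HISAT2 2.0.5 and CASAVA 1.8, and the builds listed are mm10 and GRCm38. No annotation release or strand setting is given in the sources used. Of 54495 genes also in GENCODE M21, 53585 had the same coordinates, and overlaps, shared words and GC content come from that release. FPKM times length was a whole multiple of 1 step per library (100% of positive values within 0.05), which gave the reads. A floor of 3 reads is 0.18 to 0.191 FPKM for a gene of 1 kb.

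The test used limma 3.58.1 under R 4.3.3 (two-sided, moderated with a trend in variance) on log2(FPKM + 0.5), a scale that understates the change of low genes, for genes whose mean reached 0.5 FPKM. An exact permutation test of 3 against 3 cannot give less than p = 0.1, and none was used. Alternatives were the pseudocount, filter, scaling, variance model, library weights, a replicate block, protein-coding genes only, limma voom on the recovered reads and leaving out each library in turn. A fit with GC and length trends removed was chosen after seeing the data. Omission of a library leaves 2 in its group. The test was also run on simulated reads, whose added spread was the same for every gene and library. Control replicate 1 stood apart in the real data, which the simulation does not cover, and its outcome is not given here.

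The members, gene lists and ratios were chosen with earlier results of these data known. Every member is accounted for, with the value in every library for called members, for the most abundant member of each role and for members whose call changed with the processing. Named related genes are the called ones with the smallest p in their role, up to 4. A related gene is not reported here and was left out of that list.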

Additional observations from a re-analysis of the deposited data

How the results depend on the processing

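Among the fatty acid genes, rises numbered 10 with library weights against 6 in the main test, and 4 to 8 when 1 library was left out. Falls numbered 9 to 17 when 1 library was left out, against 14. Of all genes, 35.1% were called with library weights and 15.1% to 27.5% with 1 library left out, against 27.6% in the main test. For the related genes, falls were 11 after rescaling to TPM, against 21, and 12 to 23 with 1 library left out, while rises were 5 to 11, against 9. Over all genes, rises were 1474 at a mean of at least 5 FPKM and 1256 to 2241 with 1 library left out, against 2227. Falls were 1315 after rescaling to TPM and 1072 to 1992 with 1 library left out, against 2026. Fewer samples or genes enter some of these fits, and otherwise the cause was not tested. The fall of Gdf11 was called under every alternative that tested it. Over 121 single genes and their alternatives, 2156 values kept their side of the threshold, 123 lost the call, 106 gained it and 0 reversed. A change of sign counted as reversed only if the main test or the alternative called the gene. Genes called in neither could cross zero, as Hadha did, from -0.01 to as high as 0.08.

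Same-numbered libraries of the 2 groups did not deviate together (correlation across genes 0.0153, 0.0149 and -0.0521), so the numbers were not taken as pairs. With the replicate number as a block, 11 fatty acid genes fell and 4 rose, where 20.9% of all genes were called, against 27.6% in the main test. Planned count tests with edgeR and DESeq2 were not run, since the deposited unit is FPKM. Depth limits Acsl6, Cpt1b, Plin5, Ucp3, Pparg and Ppara most.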
